A study of Mus musculus with 17 samples.

Results

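Krüppel-like factors (KLFs) are transcription factors whose 3 closely spaced zinc fingers at the C-terminus bind GC-rich and CACCC-type DNA. The genes described here are Klf2, Klf3, Klf4, Klf5, Klf6, Klf9, Klf10 and Klf13, taken by gene symbol and matched to the Ensembl identifiers of the count files through GENCODE M21. All 8 were found among the 47729 genes listed per library, and they are 8 of the 17 KLF genes in the files. All 8 passed the filter on low counts. On GRCm38 they lie at chr8:72319033-72321656 (Klf2), chr5:64803388-64832901 (Klf3), chr4:55527143-55532466 (Klf4), chr14:99298691-99315036 (Klf5), chr13:5861482-5870394 (Klf6), chr19:23141226-23168134 (Klf9), chr15:38291463-38300706 (Klf10) and chr7:63886351-63938915 (Klf13), with Klf4, Klf10 and Klf13 on the minus strand.

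In mouse embryonic stem cells Klf2, Klf4 and Klf5 act as partly redundant supports of self-renewal and sit on many of the same regulatory regions as Oct4, Sox2 and Nanog. Klf4 and Klf5 respond to LIF, the cytokine that signals through STAT3, while Klf2 protein is known to be destabilised by ERK signalling, which MEK inhibition blocks. Klf3 is a repressor that recruits CtBP, Klf9, Klf10 and Klf13 recruit the Sin3A corepressor, Klf10 is an early response gene of TGF-beta signalling, and Klf6 is a widely expressed early response gene.

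Polyadenylated RNA was sequenced from the established mouse embryonic stem cell lines R1 and CGR8 in serum-free N2B27 medium that always contained LIF. L2i contained 3 uM CHIR99021, a GSK3 inhibitor that activates the Wnt pathway, and 0.1 uM PD325901, a MEK inhibitor. LIM contained 0.1 uM PD325901 and 2 uM IWP2, which blocks the secretion of Wnt ligands. LFAI contained 12 ng/ml FGF2, 20 ng/ml Activin A and 2 uM IWP2, with no MEK inhibitor, and moves cells toward primed pluripotency. The set with both lines had 1 R1 and 1 CGR8 library (n = 2) for each of 4 groups, namely L2i (10 passages in 2i for R1 and 8 for CGR8), LIM (5 passages in 2i, then 4 or 6 in LIM), LFAI for 35 h (after 9 or 7) and LFAI for 4 days (after 3 or 9). Time in 2i thus differed between groups and cannot be told apart from the medium. A separate R1 time course had 1 library each for day 0 in L2i and for days 1 to 4 in LIM or in LFAI. Passages in 2i were 5 for day 0, 4 for days 1 to 3 and 3 for day 4 in both media. They thus changed with the day and cannot be told apart from the time since L2i. The time course was grown on gelatin and fetal calf serum in place of gelatin and a basement membrane extract. It was sequenced by another protocol version, and was scaled and described apart from the other set.

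Libraries held 12889029 to 22593805 gene counts, the R1 L2i library being the deepest, and no pair of libraries was identical. The 6 embryonic stem cell markers (Pou5f1, Sox2, Utf1, Sall4, Lin28a and Dppa5a) summed to between 3178 and 4393 CPM (counts scaled to a common library size) in the set with both lines, but 5 of the 6 were called at 4 days of LFAI relative to L2i (2 higher and 3 lower). Means went from 115 to 864 CPM for Lin28a, from 86.0 to 486 CPM for Utf1, from 1275 to 104 CPM for Dppa5a, from 313 to 87.1 CPM for Sox2 and from 291 to 201 CPM for Sall4. In LIM 2 were higher and 1 lower, and at 35 h 2 were higher. Markers of other cells also moved. From L2i to 4 days of LFAI the 3 neural markers went from 33.3 to 49.0 CPM in sum to 367 to 580 CPM (1 called higher, Nes, and 1 lower, Pax6), and the 7 trophoblast markers from 116 to 122 CPM to 126 to 376 CPM (3 higher and 3 lower of 6 tested, with Cdx2 at 0). The 7 fibroblast markers went from 2.06 to 3.17 CPM (Dcn and Lum at 0) to 13.5 to 18.03 CPM (3 higher of 4 tested, with Postn and Lum at 0), the 4 markers of 2-cell-like cells from 3.91 to 40.2 CPM to 0.327 to 0.503 CPM (4 of 4 lower, with Tcstv3 at 0), and the 7 primitive endoderm markers from 229 to 320 CPM to 268 to 435 CPM (1 higher and 1 lower of 5 tested). In LIM the sums were 126 to 193 CPM for neural (3 of 3 higher), 120 to 170 CPM for trophoblast (3 higher and 2 lower), 10.0 to 23.4 CPM for fibroblast (2 higher), 3.76 to 6.42 CPM for 2-cell-like (none called) and 327 to 443 CPM for primitive endoderm markers (1 higher, Dab2). At 35 h of LFAI they were 42.9 to 50.5 CPM for neural (1 higher, Sox1), 26.9 to 31.0 CPM for trophoblast (3 lower, with Cdx2 at 0), 7.01 to 7.37 CPM for fibroblast (none called, with Col3a1, Postn and Lum at 0), 6.20 to 67.7 CPM for 2-cell-like (none called) and 128 to 196 CPM for primitive endoderm markers (none called). Nes made up most of the neural sum after 4 days of LFAI (578 CPM in R1 and 366 CPM in CGR8). Means of Sox1 and Pax6 went from 0.833 and 4.50 CPM in L2i to 0.416 and 1.05 CPM. Most of the primitive endoderm sum was Sparc, at 315 (R1) and 225 CPM (CGR8) in L2i and 427 and 263 CPM after 4 days. The other primitive endoderm markers had means of at most 6.03 CPM in each group. The part of cells of other types in the results below was not tested.

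Tests used the edgeR quasi-likelihood test on the 8 libraries of both lines, with Benjamini-Hochberg adjustment over 15525 genes, and the word called marks an adjusted p below 0.05. Values are CPM scaled by TMM and given per line, and each log2 fold carries its SE from the test. In bulk RNA, fewer cells with a transcript and less transcript per cell cannot be told apart.

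Between L2i and 4 days of LFAI, 6 of the 8 KLF genes fell, Klf6 rose and only Klf13 was not called. Of all genes, 44.8% were called in this comparison, 23.3% lower and 21.5% higher. The members had a median log2 fold of -1.21, against -0.0012 over all genes. After 35 h the counts were 2 lower (7.16% of all genes) and 1 higher (7.35%), of 14.5% called either way. In LIM they were 1 lower (7.81%) and 1 higher (11.3%), of 19.1%. The member medians of these comparisons were log2 -0.077 and 0.021, against -0.0011 and 0.0055 over all genes. Groups that did not overlap L2i were seen for 4 members in LIM, 5 at 35 h and 7 at 4 days, and for 60.8%, 58.9% and 74% of all genes. The number called in LIM went from 2 to 4 with the cell line as a block, which added Klf4 and Klf9.

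**Figure D1:**
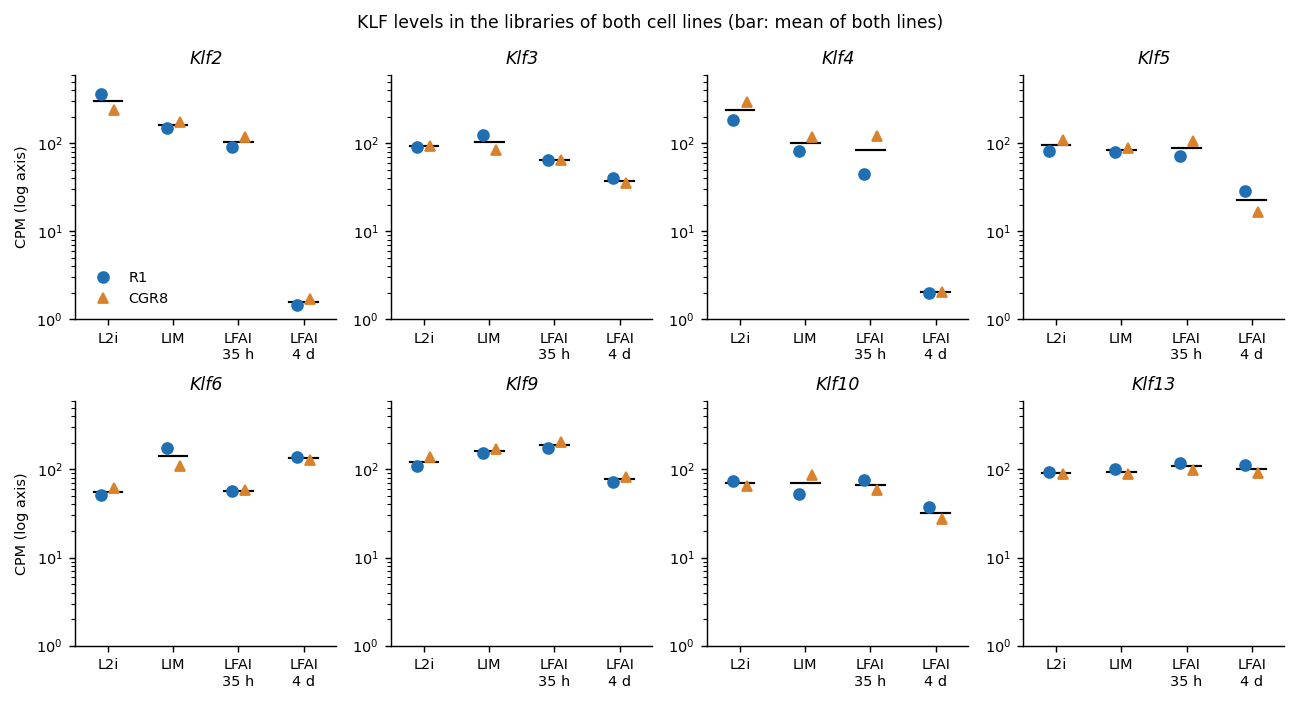
Scaled CPM on a log axis for each gene in L2i, LIM, LFAI 35 h and LFAI 4 days; circles are R1, triangles CGR8 and bars the mean of both lines. Klf2 and Klf4 lie near 2 CPM after 4 days in LFAI in both lines, while Klf13 lies between 87.7 and 119 CPM in all 8 libraries.

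Klf4, a reprogramming factor and LIF-responsive member of the naive network, was at 182 (R1) and 295 CPM (CGR8) in L2i and at 81.7 and 116 CPM in LIM. In LFAI it was at 44.6 and 121 CPM after 35 h and at 2.01 and 2.03 CPM after 4 days. L2i and the 4-day group overlapped with no other group, whereas LIM and 35 h overlapped each other. Klf4 fell 118-fold between L2i and 4 days (log2 -6.88 ± 0.56, adjusted p = 3.8e-05) and 40.8-fold between 35 h and 4 days (log2 -5.35 ± 0.54, adjusted p = 0.00019). The latter was log2 -4.46 without CGR8 35 h and -5.93 without R1 35 h, both called. In LIM it was 2.41-fold below L2i, which did not pass (log2 -1.27 ± 0.41, adjusted p = 0.064) but did with the line as a block (log2 -1.24, adjusted p = 0.0049). The LIM value also passed with the 4 libraries of the comparison alone (log2 -1.26, adjusted p = 0.025). With no filter on low counts the LIM value had an adjusted p of 5e-07 at almost the same fold (log2 -1.27), for a reason not tested. Without the R1 or CGR8 35 h library it was log2 -1.27 in both and passed. The fall at 35 h (log2 -1.53 ± 0.42, adjusted p = 0.041) was not called when any 1 of the other libraries than CGR8 35 h was left out. It was log2 -1.82 without R1 L2i, -1.11 without CGR8 L2i and -0.98 without R1 35 h, and -1.51, -1.52, -1.52 and -1.51 without R1 LIM, CGR8 LIM, R1 4-day and CGR8 4-day. Without CGR8 35 h it was -2.41 and called (adjusted p = 0.0037). It was also not called with DESeq2 (-1.52, adjusted p = 0.055) or with the 4 libraries of the comparison alone (-1.52, adjusted p = 0.099).

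Klf4 also differed most between the lines among these genes. CGR8 was above R1 in L2i, LIM and 35 h and level with it after 4 days, and the line term of the blocked fit was log2 0.78 ± 0.18 (adjusted p = 0.12, CGR8 over R1). It was not called, nor was that of any other member, against 0.541% of all genes (0.29% higher and 0.251% lower in CGR8). At an unadjusted p under 0.05, edgeR gave Klf4, Klf9 and Klf13, and DESeq2 and limma-voom each called 1 member, Klf4. The Klf4 line term passed without either 4-day library (log2 0.87 in both, adjusted p = 0.043 without R1 and 0.046 without CGR8), with DESeq2 (log2 0.75, adjusted p = 0.015) and with limma-voom (log2 0.83, adjusted p = 0.042).

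Klf2, a member tied to MEK inhibition, was at 362 (R1) and 238 CPM (CGR8) in L2i and at 148 and 173 CPM in LIM. LFAI held 90.9 and 117 CPM after 35 h and 1.45 and 1.70 CPM after 4 days. None of the 4 groups overlapped another, in the order L2i, LIM, 35 h, 4 days. The fall from L2i to 4 days was 190-fold (log2 -7.57 ± 0.30, adjusted p = 2.4e-06), of which 65.9-fold came between 35 h and 4 days (log2 -6.04 ± 0.29, adjusted p = 6.2e-06). Klf2 fell 2.89-fold by 35 h (log2 -1.53 ± 0.21, adjusted p = 0.0026). LIM and 35 h did not differ past the threshold (log2 -0.63 ± 0.21, adjusted p = 0.12).

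For Klf2 in LIM the call depended on single libraries, but the direction did not. Klf2 was 1.87-fold below L2i (log2 -0.90 ± 0.21, adjusted p = 0.019), with log2 folds of -1.29 in R1 and -0.46 in CGR8. The blocked fit also passed, at log2 -0.90 ± 0.21 (adjusted p = 0.015). Over the 8 fits that each left out a library, the log2 fold stayed negative, from -1.175 to -0.566. Leaving out R1 L2i gave log2 -0.57, leaving out R1 LIM gave -0.79 and leaving out CGR8 LIM gave -1.01, none of them called. Each of these fits had only 1 library in a compared group. In the separately scaled time course Klf2 started lower, at 153 CPM on day 0, and was at 147, 163, 168 and 153 CPM on days 1 to 4 of LIM. No loss in LIM was seen there up to day 4, which was at 1.00 of day 0 (counting interval 0.942 to 1.07). The LIM group of both lines had instead spent 4 or 6 passages in LIM, so the time in LIM differs between the sets.

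Klf5, the third of the trio, kept its level longer. Levels were 81.0 (R1) and 107 CPM (CGR8) in L2i, 79.8 and 87.9 CPM for LIM, 70.8 and 106 CPM at 35 h, and 28.9 and 16.5 CPM at 4 days. The first 3 groups overlapped and the 4-day group lay below them. Klf5 fell 4.14-fold from L2i to 4 days (log2 -2.05 ± 0.29, adjusted p = 0.00067) and 3.88-fold from 35 h (log2 -1.96 ± 0.29, adjusted p = 0.0012). Its differences from L2i in LIM (log2 -0.17 ± 0.28, adjusted p = 0.72) and at 35 h (log2 -0.09 ± 0.28, adjusted p = 0.86) were smaller than their errors.

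To show the control regions of genes with opposite courses, the bases upstream of the start are given for Klf2 and Klf4, which fell farthest, for Klf6, which rose, and for Klf13, which was not called. They are RefSeq sequences on GRCm38.p6, at chr8:72318812-72319032 (plus strand), chr4:55532476-55532725 (minus strand), chr13:5861239-5861481 (plus strand) and chr7:63938916-63939165 (minus strand), written 5′ to 3′ on the strand of the gene and ending before the first annotated start. Capitals mark the GC box GGGCGG on either strand, a sequence of the type that KLF and SP proteins bind.
Klf2: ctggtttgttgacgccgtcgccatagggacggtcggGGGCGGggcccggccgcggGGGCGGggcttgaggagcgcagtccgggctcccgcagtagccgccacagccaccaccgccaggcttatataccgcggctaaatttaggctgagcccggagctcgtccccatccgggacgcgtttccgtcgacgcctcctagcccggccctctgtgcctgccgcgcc
Klf4: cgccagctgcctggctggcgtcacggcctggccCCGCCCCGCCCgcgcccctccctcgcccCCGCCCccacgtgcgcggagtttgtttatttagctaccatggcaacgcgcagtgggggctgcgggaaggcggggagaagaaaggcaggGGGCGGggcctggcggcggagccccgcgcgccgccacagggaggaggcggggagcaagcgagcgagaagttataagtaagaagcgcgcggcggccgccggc
Klf6: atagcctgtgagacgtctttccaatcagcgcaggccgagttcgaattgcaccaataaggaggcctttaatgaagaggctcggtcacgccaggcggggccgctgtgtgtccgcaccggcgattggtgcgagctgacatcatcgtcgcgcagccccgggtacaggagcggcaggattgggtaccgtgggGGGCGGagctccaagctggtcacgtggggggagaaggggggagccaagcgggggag
Klf13: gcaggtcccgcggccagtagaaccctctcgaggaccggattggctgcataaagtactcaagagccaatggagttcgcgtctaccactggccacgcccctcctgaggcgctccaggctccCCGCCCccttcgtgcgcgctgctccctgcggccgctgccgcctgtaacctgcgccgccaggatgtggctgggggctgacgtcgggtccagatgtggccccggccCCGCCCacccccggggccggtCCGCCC

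Promoter windows of 300 bases (250 before and 50 after the RefSeq start) were found for 6 of the 8 genes, those named above with Klf3 and Klf9. The GC box GGGCGG matched 2 times for Klf2, 4 for Klf4, 6 for Klf3, 3 for Klf13, 1 time for Klf6 and 0 times for Klf9, and 35.66% of 32851 windows hold one. CACCC matched 5 times for Klf3, 1 time each for Klf2, Klf9 and Klf13, and 0 times for Klf4 and Klf6 (57.52% of windows). CCAAT matched 4 times for Klf6, 3 for Klf9 and 2 for Klf13, and 0 times for Klf2, Klf3 and Klf4 (37.41% of windows). The STAT motif TTCNNNGAA was in the Klf9 window only (8.3% of windows). The TCF/LEF motif CTTTGAT (3.73%), the ETS motif CCGGAAGT (3.89%), the CArG box (1.63%) and TATAAA (13.62%) were in none of the 6. Both strands were searched, and neighbouring GC box and CACCC matches can share a base. The 6 windows had between 63.0 and 76.67% G and C, against a median of 52.67% over all windows.

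Klf3, a CtBP-dependent repressor, had 91.2 (R1) and 92.7 CPM (CGR8) in L2i, 124 and 84.2 CPM for LIM, 64.6 and 64.2 CPM at 35 h, and 39.8 and 35.3 CPM at 4 days. L2i, 35 h and 4 days formed a descending series without overlap, and LIM overlapped L2i. Klf3 fell 2.45-fold between L2i and 4 days (log2 -1.29 ± 0.19, adjusted p = 0.0007) and 1.72-fold between 35 h and 4 days (log2 -0.78 ± 0.19, adjusted p = 0.012), the latter not called without CGR8 4-day (log2 -0.72). The 35 h value was log2 -0.51 ± 0.18 relative to L2i (adjusted p = 0.098). It passed with the 4 libraries of the comparison alone (-0.51, adjusted p = 0.048) and without CGR8 LIM (-0.51). Relative to LIM it was -0.69 ± 0.18 (adjusted p = 0.062), which passed with the line as a block (-0.67, adjusted p = 0.036), with DESeq2 (-0.68, adjusted p = 0.019) and without CGR8 LIM (-0.94, adjusted p = 0.022). An opposite-strand transcript, Gm20033, shares 404 exon bases with Klf3 and had at most 19 counts in any library.

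Klf6 was the only member to rise in LIM and after 4 days of LFAI. R1 and CGR8 had 50.7 and 61.2 CPM in L2i, 173 and 108 CPM for LIM, 57.3 and 57.7 CPM at 35 h, and 138 and 128 CPM at 4 days. L2i overlapped 35 h, and LIM overlapped the 4-day group. Klf6 rose 2.52-fold in LIM (log2 1.33 ± 0.21, adjusted p = 0.0036) and 2.38-fold after 4 days (log2 1.25 ± 0.21, adjusted p = 0.0016), but not by 35 h (log2 0.04 ± 0.21, adjusted p = 0.92). It was the only member called between 35 h and LIM, where it was 2.45-fold lower at 35 h (log2 -1.29 ± 0.21, adjusted p = 0.013), against 4.46% of all genes called lower, 1.92% higher and 6.38% either way. The groups of 4 members did not overlap in that comparison (52.9% of all genes). The Klf6 call was lost without R1 35 h (log2 -1.28, adjusted p = 0.068) or CGR8 35 h (log2 -1.29, adjusted p = 0.07). LIM and 4 days of LFAI were not called different (log2 -0.08 ± 0.21, adjusted p = 0.8), with log2 folds of -0.33 in R1 and 0.24 in CGR8.

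Klf9 was up at 35 h and down at 4 days of LFAI. Its levels were 108 (R1) and 137 CPM (CGR8) in L2i, 153 and 172 CPM for LIM, 176 and 205 CPM at 35 h, and 72.1 and 82.1 CPM at 4 days. None of the 4 groups overlapped another, and 35 h was highest and 4 days lowest. The 35 h group was only just above LIM, at 176 CPM (R1 35 h) against 172 CPM (CGR8 LIM). That difference was not called (log2 0.23 ± 0.16, adjusted p = 0.45), and 52.9% of all genes did not overlap in that comparison. Klf9, whose gene is also known as a target of glucocorticoid and thyroid hormone receptors, rose 1.55-fold by 35 h (log2 0.64 ± 0.16, adjusted p = 0.03) and then fell 2.47-fold between 35 h and 4 days (log2 -1.31 ± 0.16, adjusted p = 0.00046). The rise was not called without R1 L2i (log2 0.49), R1 35 h (0.75) or CGR8 35 h (0.53), nor with the 4 libraries of the comparison alone (0.64, adjusted p = 0.056). In LIM it was at log2 0.41 ± 0.16 over L2i (adjusted p = 0.11), which passed with the line as a block (0.41, adjusted p = 0.039). The 4-day level was 1.59-fold under L2i (log2 -0.67 ± 0.16, adjusted p = 0.009). That fall was not called without CGR8 L2i (log2 -0.50) or R1 4-day (-0.57), nor with the day 0 and day 4 LFAI libraries of the time course added (-0.35, adjusted p = 0.19).

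Klf10, the TGF-beta-inducible member, had 74.6 (R1) and 64.7 CPM (CGR8) in L2i, 52.8 and 86.0 CPM for LIM, 75.3 and 58.2 CPM at 35 h, and 37.1 and 27.1 CPM at 4 days. The first 3 groups overlapped and the 4-day group lay below them. Klf10 fell 2.17-fold between L2i and 4 days (log2 -1.12 ± 0.26, adjusted p = 0.008) and 2.08-fold from 35 h (log2 -1.06 ± 0.26, adjusted p = 0.013). Both calls were lost without CGR8 4-day (log2 -0.91 and -0.87), and the latter also without R1 35 h (-0.89). The fall from L2i was also not called with the time course libraries added (-0.72, adjusted p = 0.064). Activin A in LFAI acts through a receptor pathway related to that of TGF-beta. After 35 h of LFAI, Klf10 was not called different from L2i (log2 -0.06 ± 0.26, adjusted p = 0.9). LFAI also differs from L2i in FGF2, IWP2 and both inhibitors, and an effect of Activin A on Klf10 was not tested.

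Klf13 was the flattest member, between 87.7 and 119 CPM in the 8 libraries, and its groups overlapped in 5 of 6 comparisons. Of the 8 members it alone was not called in a single test over the 4 groups (adjusted p = 0.54), where 48.3% of all genes were called. R1 exceeded CGR8 in each group, from 94.5 against 88.6 CPM in L2i to 112 against 90.0 CPM after 4 days. The other 7 members were called in that test with adjusted p from 1.4e-05 (Klf2) to 0.02 (Klf10), the latter not without CGR8 4-day (0.16).

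Between LIM and 4 days of LFAI, 6 members fell and none rose (17.2% and 12.3% of all genes, 29.5% either way). The same 6 members had groups that did not overlap (68.5% of all genes). The fall was 102-fold for Klf2 (log2 -6.67 ± 0.29, adjusted p = 7.7e-06). It was 48.9-fold for Klf4 (adjusted p = 0.00024), 3.69-fold for Klf5 (adjusted p = 0.0022), 2.77-fold for Klf3 (adjusted p = 0.00084), 2.11-fold for Klf9 (adjusted p = 0.0018) and 2.16-fold for Klf10 (adjusted p = 0.014). Klf10 was not called without CGR8 4-day (log2 -0.91) or CGR8 LIM (-0.72). From 35 h to 4 days, 6 members fell (19% of all genes) and Klf6 rose 2.31-fold (log2 1.21 ± 0.21, adjusted p = 0.0027, 17.7% of all genes higher and 36.8% either way). These 7 had groups that did not overlap (72.3% of all genes). LFAI against LIM differs in the time since L2i as well as in the medium, and these comparisons share libraries with those against L2i.

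**Figure D2:**
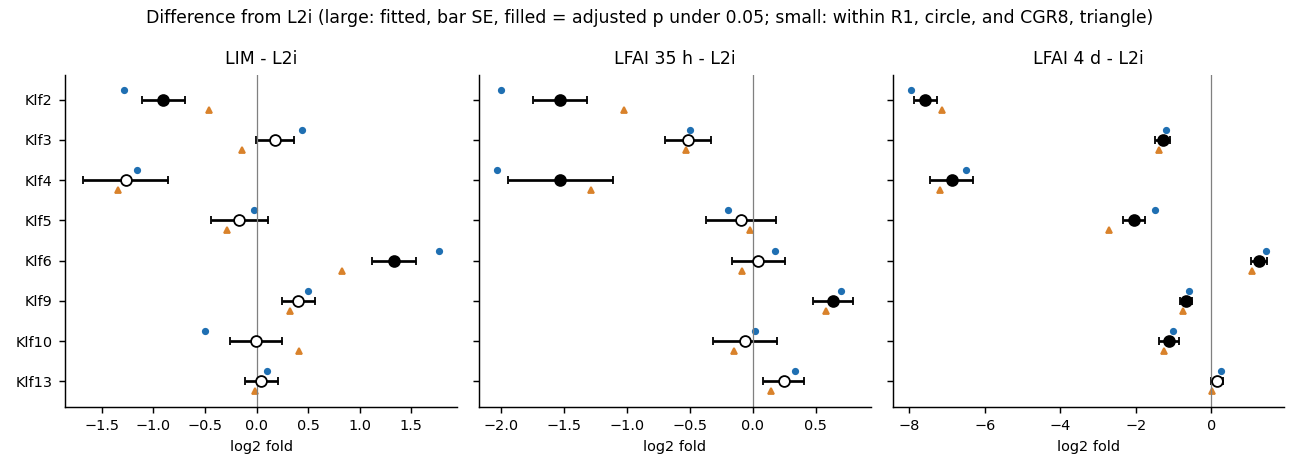
Log2 fold relative to L2i in LIM, LFAI 35 h and LFAI 4 days; large circles are fitted values with SE, filled where the adjusted p was under 0.05, and small circles (R1) and triangles (CGR8) are the folds within each line. Horizontal scales differ between panels: Klf2 and Klf4 reach log2 -7.57 and -6.88 after 4 days of LFAI, against -1.53 for both after 35 h.

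The time course gave the levels by day, with 1 library a day, so its values carry counting intervals (95%) and no test. On day 1 of LFAI no member was 2-fold or more below day 0 (5.31% of all genes were), on day 2 Klf4 and Klf2 were (12.1%), and on days 3 and 4 Klf2, Klf3, Klf4 and Klf5 were (13.7% and 14.1%). No member reached a 2-fold higher level on days 1 to 4 of LFAI, where 6.6, 11.8, 15.5 and 17% of all genes did. In LIM, Klf4 on day 4 was the only member 2-fold or more lower, against 6.02, 6.39, 8.7 and 8.72% of all genes on days 1 to 4. Klf6 on day 2 was the only one 2-fold or more higher, against 6.86, 8.17, 8.72 and 9.62% of all genes.

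**Figure D3:**
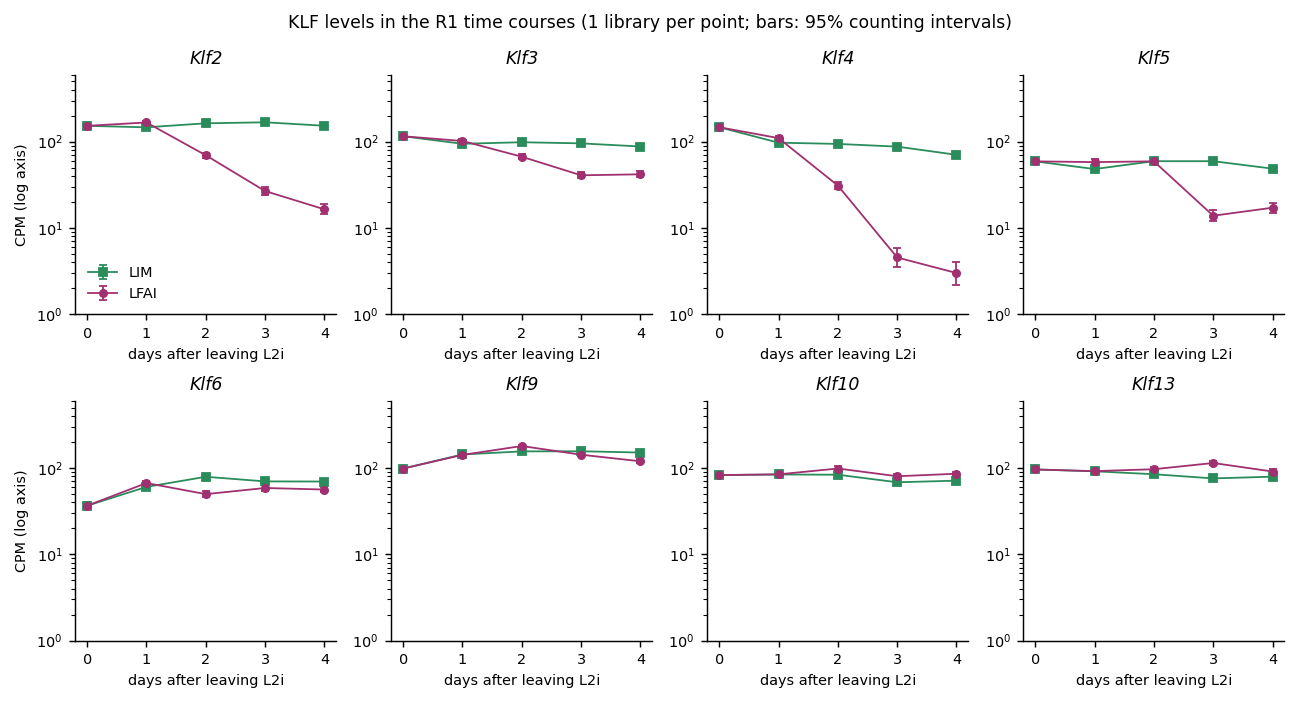
Scaled CPM on a log axis over days in LIM (squares) and LFAI (circles) in R1 cells, from the shared day 0 library; bars are 95% counting intervals. Klf4, Klf2, Klf3 and Klf5 separate between the media, whereas for Klf6, Klf9, Klf10 and Klf13 the ratio of LFAI to LIM lies between 0.629 and 1.51 on each day.

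Klf4 was at 147 CPM on day 0 and at 110, 31.0, 4.55 and 3.00 CPM on days 1 to 4 of LFAI. It was thus at 21.1% of day 0 on day 2 (ratio 0.211, interval 0.189 to 0.235) and at 2.04% on day 4 (ratio 0.0204, interval 0.0147 to 0.0277). In LIM it was already at 66.2% on day 1 and reached 47.9% on day 4 (97.4, 94.2, 87.6 and 70.4 CPM). Day 1 is the only day on which Klf4 was not lower in LFAI than in LIM, at a ratio of 1.13 (interval 1.05 to 1.22).

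Klf2 was at 167, 69.6, 26.8 and 16.5 CPM on days 1 to 4 of LFAI. It kept 109% of day 0 on day 1, then 45.6%, 17.5% and 10.8% on the following days. Its level on day 4 (16.5 CPM) was above those of 1.45 and 1.70 CPM after 4 days in the other set, and that of Klf4 was 3.00 CPM against 2.01 and 2.03 CPM. The sets were scaled apart, and coating and sequencing protocol differ between them.

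Klf5 stayed at 58.0 and 59.2 CPM on days 1 and 2 of LFAI, against 59.1 CPM on day 0, and then was at 13.9 CPM on day 3 and 17.2 CPM on day 4. It was thus still at 100% of day 0 on day 2, when Klf4 was at 21.1%, and at 23.4% on day 3. Klf3 went from 116 CPM through 102, 66.9 and 40.8 to 41.9 CPM, or 36.2% of day 0 on day 4. In LIM, Klf5 was between 48.2 and 59.4 CPM and Klf3 between 87.9 and 98.5 CPM on days 1 to 4.

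The other 4 genes were 2-fold or more below day 0 on no day. Klf6 was at 36.5 CPM on day 0 and at 60.4, 79.1, 69.9 and 69.6 CPM in LIM. In LFAI it was at 66.9, 49.8, 58.6 and 56.2 CPM, and all 8 later libraries were above day 0. The LFAI ratio of Klf6 to day 0 was highest on day 1, at 1.83 (interval 1.64 to 2.05). It was 1.36 on day 2 and 1.54 on day 4. In the set with both lines Klf6 was instead not called higher by 35 h and rose by 4 days, so the timing differed between the sets. Klf9 was at 98.5 CPM on day 0, at 143, 156, 156 and 151 CPM in LIM, and at 142, 180, 142 and 120 CPM in LFAI, with its highest value on day 2 of LFAI. Klf9 thus did not go under day 0, in contrast to its called fall after 4 days in the other set. Klf10 was at 82.7 CPM on day 0, between 68.3 and 84.0 CPM in LIM and between 80.2 and 98.6 CPM in LFAI, and its day 4 ratio in LFAI was 1.04 (interval 0.955 to 1.13). The lower Klf10 after 4 days of LFAI in the set with both lines was therefore not seen here. Klf13 was between 75.7 and 114 CPM over the 9 libraries.

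Across the 8 libraries of both lines, log2 CPM of Klf2 and Klf4 correlated at 0.98 (Pearson r), Klf4 and Klf5 at 0.96 and Klf2 and Klf5 at 0.94. Over the 9 time course libraries the values were 0.99, 0.93 and 0.91. High r was not limited to this trio. Klf3 correlated with Klf2, Klf4 and Klf5 at 0.90, 0.88 and 0.84 in the 8 libraries and at 0.97, 0.99 and 0.92 in the time course. Klf9 and Klf10 had r of 0.75 to 0.89 with the trio in the 8 libraries but -0.31 to 0.23 in the time course. For Klf13 r was negative in both sets (-0.32 to -0.12 and -0.57 to -0.51). These r values describe libraries that share media and, in the time course, a day 0 start. Klf6 was negatively correlated with the trio in the first set (r from -0.58 to -0.54) but near 0 in the time course (0.054 to 0.21). The genes most like Klf4 among 9178 with a mean of 10 CPM or more were Prdm14 (r 0.996 in the 8 libraries, 0.990 in the time course), Gjb5 (0.996 and 0.835) and Jam2 (0.995 and 0.986). Those most like Klf2 were Pecam1 (0.998 and 0.991), Rtn4 (0.995 and 0.653) and Stk38 (0.994 and 0.996). For Klf5 they were Cdc42ep4 (0.997, but -0.677 over the days), Lnpep (0.996 and 0.808) and Relch (0.995 and 0.590). For Klf3 they were Commd3 (0.98, but -0.054 in the time course), Cpped1 (0.98 and 0.67) and Tacc1 (0.98 and 0.93). The nearest to Klf9 was Tex9 (0.99 and 0.87), to Klf6 Tnfrsf10b (0.98 and -0.093), to Klf10 Brip1 (0.97 and 0.28) and to Klf13 Nsun5 (0.94 and 0.69).

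Levels of different genes were compared as CPM per kb of annotated exon. All annotated exons of a gene were merged for this length (1847 bases for Klf2 to 11243 for Klf3), on which the order depends. In L2i, Klf2 led with 163 CPM per kb (mean of both lines), followed by Klf4 (78.2), Klf9 (25.5), Klf5 (18.1), Klf10 (16.7), Klf6 (12.7), Klf13 (12.2) and Klf3 (8.18). After 4 days of LFAI the order was Klf6 (30.3), Klf9 (16.0), Klf13 (13.4), Klf10 (7.67), Klf5 (4.37), Klf3 (3.34), Klf2 (0.852) and Klf4 (0.662). By these means Klf2 went from first to seventh among the 8 and Klf6 from sixth to first. In R1 L2i, Klf6 (11.5) lay below Klf13 (12.6) and Klf10 (17.8) above Klf5 (15.6), the reverse of CGR8.

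The summed level of all 17 KLF genes was 407 (R1) and 387 CPM per kb (CGR8) in L2i, 283 and 301 for LIM, 222 and 268 at 35 h, and 123 in both lines at 4 days. The share of Klf2, Klf4 and Klf5 in it was 66.6 and 63.7% for L2i, 43.2 and 49.4% for LIM, 35.0 and 46.1% at 35 h, and 5.68 and 3.88% at 4 days. Over the R1 days the trio went from 53.6% on day 0 to 49.6, 30.3, 12.7 and 10.3% on days 1 to 4 of LFAI, and was between 46.5 and 49.5% in LIM.

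**Figure D4:**
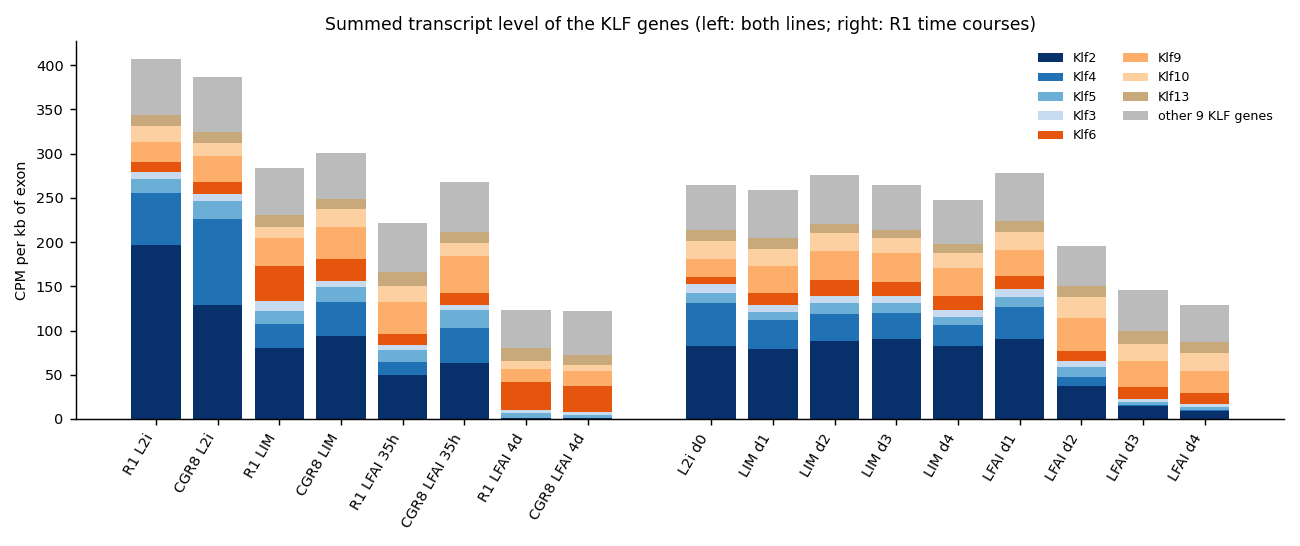
Summed level of the 17 KLF genes in CPM per kb of exon in each library, stacked by gene, with the set of both lines at left and the R1 time course at right. In the set with both lines Klf2, Klf4 and Klf5 (dark to mid blue) hold 63.7 to 66.6% of the sum in L2i and 3.88 to 5.68% after 4 days of LFAI. In the time course they hold 53.6% on day 0 in L2i and 10.3% on day 4 of LFAI.

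The counts of called genes in the lists below stand beside 19.1% of all genes called in LIM (11.3% higher and 7.81% lower), 14.5% at 35 h (7.35% and 7.16%) and 44.8% at 4 days of LFAI (21.5% and 23.3%), all relative to L2i.

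Of the 9 other KLF genes, all tested, 3 rose and 1 fell in LIM relative to L2i, 1 fell by 35 h, and 2 rose and 1 fell after 4 days of LFAI. The counts of 1 of 9 at 35 h and 3 of 9 at 4 days were not above the shares of all genes. Klf8, a CtBP-binding repressor like Klf3, fell at each of these points, from 97.7 (R1) and 106 CPM (CGR8) in L2i to 52.8 and 51.7 CPM for LIM, 34.4 and 63.2 CPM at 35 h, and 13.2 and 14.5 CPM at 4 days (log2 -2.88 ± 0.27, adjusted p = 7e-05). Klf7, the closest relative of Klf6, rose 2.94-fold in LIM (adjusted p = 0.006) and 3.55-fold after 4 days (adjusted p = 0.00092), from a mean of 12.9 to 37.9 and 45.8 CPM. Klf12, at a mean of 1.83 CPM in L2i, rose 4.53-fold in LIM (adjusted p = 0.026) and 3.75-fold after 4 days (adjusted p = 0.021), and Klf11 rose 1.84-fold in LIM (adjusted p = 0.028). The LIM rises of Klf7 and Klf12 after 4 or 6 passages were not seen by day 4 in the time course. Klf7 was at 15.1 CPM on day 0 and 14.9 CPM on day 4 of LIM, and Klf12 at 4.02 and 2.49 CPM. On day 4 of LFAI, Klf7 was at 46.0 CPM and Klf12 at 4.44 CPM. Klf11 was at 21.7 CPM on day 0 and 33.0 CPM on day 4 of LIM, and Klf8 at 75.2 CPM on day 0, 57.7 CPM on day 4 of LIM and 12.2 CPM on day 4 of LFAI. Klf17, a marker of the human naive state, stayed at or below 1.61 CPM in all 8 libraries.

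SP genes encode the sister family that binds the same GC boxes. Of 9 listed, 7 were tested, and 2 fell in LIM, 1 fell and 1 rose by 35 h, and 3 fell and 1 rose after 4 days relative to L2i. Sp2 fell in LIM (log2 -0.59, adjusted p = 0.023) and after 4 days (log2 -0.83, adjusted p = 0.0019), and after 4 days Sp3 fell (log2 -0.42, adjusted p = 0.019) and Sp6 rose (log2 0.83, adjusted p = 0.033). Sp5, a direct Wnt target, fell from a mean of 36.7 CPM in L2i to 0.593 CPM in LIM (log2 -5.95 ± 0.81, adjusted p = 0.0019), 0.0326 CPM after 35 h and 0.0629 CPM after 4 days. Sp1, the broadly expressed founder of the family, rose 1.52-fold by 35 h (log2 0.60 ± 0.13, adjusted p = 0.02).

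Of 12 corepressors and cofactors of the KLFs, 1 rose and 1 fell in LIM, 1 rose by 35 h, and 3 rose and 2 fell after 4 days, relative to L2i. These counts of 2, 1 and 5 of 12 are near or under the shares of all genes. Ctbp2, the corepressor used by Klf3 and Klf8, was higher in all 3 groups, at 325, 400 and 415 CPM against 235 CPM in L2i (log2 0.46, 0.77 and 0.82, adjusted p = 0.022, 0.0034 and 0.00055). Kat2b, an acetyltransferase, fell 4.41-fold after 4 days (log2 -2.14 ± 0.12, adjusted p = 8.9e-06).

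Among 12 naive and core factors that act with the KLFs, 5 fell and 1 rose in LIM, 5 fell by 35 h, and 11 fell after 4 days of LFAI. After 4 days Nr5a2 and Esrrb were among these, and Zfp42 fell 68.3-fold (log2 -6.09 ± 0.19, adjusted p = 9.5e-07). Of 10 genes of the LIF pathway, which lies upstream of Klf4, 2 fell in LIM, 3 fell by 35 h, and 7 fell and 1 rose after 4 days. Lifr, the LIF receptor, had means of 73.4 CPM in L2i, 68.1 CPM for LIM, 110 CPM at 35 h and 4.56 CPM at 4 days, a 16.0-fold fall from L2i (adjusted p = 1.5e-05). Its partner Il6st fell 6.06-fold (log2 -2.60 ± 0.22, adjusted p = 4.4e-05), with LIF in all media.

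Readouts of the other signalling inputs were as follows. Of 10 MEK/ERK readouts, 2 rose and 1 fell in LIM, 6 rose by 35 h, and 7 rose and 1 fell after 4 days, Dusp6 going from 4.74 CPM in L2i to 14.0, 54.9 and 142 CPM. Of 10 Wnt readouts, 6 fell and 1 rose in LIM, 6 and 1 by 35 h, and 7 and 1 after 4 days. Of 8 Nodal/Activin readouts, 2 rose and 2 fell in LIM, 5 rose by 35 h, and 4 rose and 1 fell after 4 days. The medians of these lists for 4 days against L2i were log2 2.50, -4.01 and 1.24, those of the naive and LIF lists -6.35 and -1.54, and that of all genes -0.0012. The same medians came out with Prdm14 and Cdx1, which had 0 counts after 4 days, set at the fold over a floor of 3 counts in the group. The other KLF, SP and cofactor lists had medians of -0.23 (-0.17 without the gene at or under the floor), -0.42 and -0.11.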

How the data were processed

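Each library came as 1 deposited table of raw counts, with 47729 Ensembl genes and 5 summary lines without a gene. Those lines, multiply aligned reads for the most part, held 47.7 to 51.9% of reads and were left out. Per the submitters' processing notes, HISAT2 2.0.4, HTSeq 0.6.1 and DESeq2 1.10.1 were used with GRCm38, and per the labels' protocols libraries were stranded and poly(A)-selected. The annotation release and strand setting of the counting are not given in the sources used here. GENCODE M21 (GRCm38) matched 47224 identifiers.

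The 8 libraries of both lines were fitted together in edgeR 4.0.16 (R 4.3.3) after filterByExpr (15525 genes) and TMM scaling, by group means with 4 residual degrees of freedom and no block. The 9 time course libraries were scaled by TMM apart (15682 genes at 1 CPM or more in a library). Counting intervals are exact Poisson or binomial, cover counting error only, and need no replicates. The p-values set differences between groups against the residual spread between these libraries. Without a block that spread includes the difference between the lines, and no line had a replicate within a group. The lines pair libraries across groups because they are the same cell lines, and line deviations correlated between groups at 0.041 to 0.40. Alternatives were DESeq2 1.42.0 size factors and Wald test (a likelihood ratio test for all 4 groups at once), limma 3.58.1 voom, no filter, the line as a block, the 4 libraries of a comparison alone, each library left out, time course libraries added, and other time course scalings. The genes and lists were chosen with earlier results of these data known. All 8 genes are named. From each list up to 3 called members with the smallest p in a comparison described could be named, and any called KLF or SP gene, and for likeness up to 3 genes with the highest r (log2 CPM, prior count 2). The fit was tested on simulated data.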

Additional observations from a re-analysis of the deposited data

Results flagged for a closer look

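In 9 comparisons of single genes the 2 lines moved in opposite directions, which drew attention to them. The differences between lines were not tested, since each line had 1 library per group. Values are log2 folds within a line.

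Klf10 in LIM relative to L2i was at -0.50 in R1 and 0.41 in CGR8, and at 35 h of LFAI relative to LIM at 0.51 in R1 and -0.56 in CGR8. Against L2i at 35 h it stood at 0.015 in R1 and -0.15 in CGR8. Klf4 at 35 h relative to LIM was at -0.87 in R1 and 0.054 in CGR8, and Klf5 at -0.17 and 0.26. Klf6 was at -0.33 in R1 and 0.24 in CGR8 for 4 days of LFAI relative to LIM, and at 0.18 and -0.083 for 35 h relative to L2i. In LIM relative to L2i, Klf3 was at 0.44 in R1 and -0.14 in CGR8, and Klf13 at 0.10 and -0.015.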

How the results depend on the processing

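The counts of members called changed by over 1.5 times for LIM against L2i with the line as a block (4, from 2), for 35 h against LIM with the block (2), DESeq2 (2) or no filter on low counts (3, from 1), and for the line term with DESeq2 (1), limma-voom (1) or no filter (1, from 0). The block changed the calls of Klf4 and Klf9 in LIM and of Klf3 at 35 h against LIM, and no other. The cause was not tested. With 1 library left out, the counts ranged from 1 to 3 for LIM against L2i, 1 to 3 for 35 h against L2i, 6 to 7 for 4 days against L2i, 5 to 7 for 4 days against 35 h, 0 to 2 for 35 h against LIM, 5 to 6 for 4 days against LIM, 6 to 7 for all groups and 0 to 1 for the line term. A group left with 1 library was assumed to vary like the others.

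Folds that changed sign were not called in any of these fits. Klf10 in LIM against L2i (-0.0055) was 0.0065 with the block and 0.0015 with the 4 libraries alone. With 1 library left out, log2 folds in LIM against L2i ranged from -0.12 to 0.43 for Klf3, -0.35 to 0.046 for Klf5, -0.40 to 0.31 for Klf10 and -0.056 to 0.16 for Klf13. At 35 h against L2i they ranged from -0.40 to 0.17 for Klf5, -0.0744 to 0.21 for Klf6 and -0.25 to 0.12 for Klf10. At 35 h against LIM they ranged from -1.15 to 0.29 for Klf4, -0.24 to 0.34 for Klf5 and -0.35 to 0.34 for Klf10. At 4 days Klf13 ranged from -0.015 to 0.29 against L2i, -0.26 to 0.032 against 35 h and -0.0658 to 0.24 against LIM, and Klf6 from -0.38 to 0.28 against LIM.

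The falls of Klf2, Klf4, Klf5 and Klf3 and the rise of Klf6 from L2i to 4 days of LFAI were called under all alternatives run. Counting error is small for most members, but Klf2 and Klf4 rest on few counts after 4 days (23 and 26 for Klf2, 32 and 31 for Klf4).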
